A study of Rattus norvegicus with 2 samples.

Results

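The cells described here are the treated rat cortical neural stem cells that carried the least RNA of 9 stress genes. Of 2838 ZD7288-treated cells with at least 5000 UMIs (unique molecular identifiers, 1 per captured RNA molecule) and at most 10% mitochondrially encoded UMIs, the 283 with the lowest share of UMIs from Trib3, Chac1, Asns, Cth, Pck2, Slc7a11, Slc7a3, Ddit3 and Sesn2 were selected on that share, so levels of these 9 genes are a description and support nothing. They are called the weakest cells. They were the lowest 10% of treated cells past this filter, and the series held 4691 barcodes in all, 3849 treated and 842 vehicle. They were set beside 710 vehicle cells past the same filter and beside the 567 treated cells in the middle of the same ranking, from 40 to 60%, called the middle cells. The weakest cells are a range of a continuous measure and not a cell type.

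The neural stem cells were purchased and derived from cortex of Sprague-Dawley rats at stage E14.5. Treated cells received 30 µM ZD7288, a blocker of HCN pacemaker channels, in 0.2% DMSO, and vehicle cells received DMSO alone. Both were held for 48 h in medium with FGF2, a growth factor that keeps such cells undifferentiated, and medium and compound were renewed at 24 h. The treatment label of the treated sample spells the compound ZD2788, and its protocol spells it ZD7288. Each treatment was 1 library, so treatment and library cannot be told apart, cells are not replicates, and no test was possible. All 95% intervals below cover counting error only, of UMIs or, for shares of cells, of cells. Those for shares of cells treat cells as independent draws and do not cover differences between libraries.

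ATF4 is a transcription factor whose protein is made when the kinases of the integrated stress response slow general translation, for example when amino acids run short. It raises genes for amino acid import, for the synthesis of serine, asparagine and cysteine and for the charging of transfer RNAs. Also raised are Chac1 and feedback regulators of ATF4 such as Trib3 and Ddit3 (CHOP). Together with C/EBP partners ATF4 binds a composite DNA element.

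The element's core was searched in promoter windows as the letters TGATGNAA, or TTNCATCA on the other strand, because it shows which of the chosen genes carry the sequence that ATF4 is known to read. Windows were the 250 bases before the first listed start of each gene symbol in RefSeq (build GRCr8). Any other start of a gene was not searched. The core was in 3 of the 8 windows found for the 9 genes of the rule (37.5%), in 9 of 47 windows of other ATF4 pathway genes (19.15%) and in 899 of all 27457 windows (3.274%). The 3 genes of the rule and a pair of pathway genes outside it are shown, 5′ to 3′ along the gene's strand, with the core in capitals.
Chac1, chr3:126795948-126795987, plus strand: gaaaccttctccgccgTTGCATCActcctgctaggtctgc
Pck2, chr15:32997603-32997637, plus strand: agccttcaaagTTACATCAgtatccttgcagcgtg
Trib3, chr3:161275534-161275570, minus strand: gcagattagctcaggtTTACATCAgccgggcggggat
Herpud1, chr19:10614868-10614907, minus strand: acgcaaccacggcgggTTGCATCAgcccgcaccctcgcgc
Slc7a1, chr12:11664442-11664481, plus strand: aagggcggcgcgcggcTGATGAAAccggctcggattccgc
The core lay 167 bases before the start of Chac1, 239 before that of Pck2 and 21 before that of Trib3. A match of letters is a description of the window and no evidence of binding in these cells, and a window without it shows only that these letters are not there.

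The weakest cells held few but rarely no UMIs of the 9 genes. Their share ran from 0 to 339.559 per 1000000 UMIs of the cell, with a median of 220, and 8 of the 283 had no such UMI. Middle cells ran from 840 to 1157, with a median of 1005. Vehicle cells had a median of 68.0 and a highest value of 916, and 207 of them had no such UMI. The last cell inside the limit was at 339.559 and the first outside at 339.934, and 96 treated cells lay within 10% of the limit, 41 of them inside. Of the vehicle cells, 685 (96.5%, 94.8 to 97.7) were at or below the limit, while 19 of the weakest cells were at or below the vehicle median. The weakest cells thus overlapped the upper part of the vehicle range, and the ranking had no gap at the limit.

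**Figure D1:**
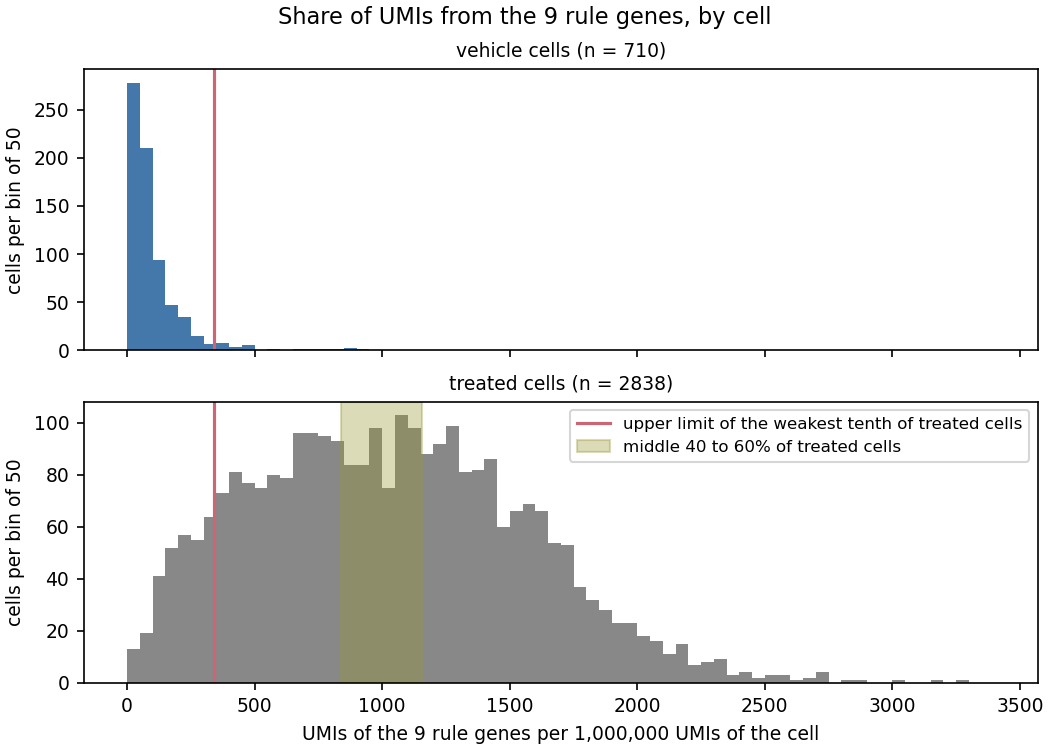
Histograms of the share of UMIs from the 9 genes of the rule (x axis, UMIs per 1000000) in 710 vehicle and 2838 treated cells (y axis, cells per bin). The red line is the upper limit of the weakest cells and the shaded band holds the middle cells; the treated distribution is broad, with its lowest 10% lying over the vehicle range.

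Each of the 9 genes was lower in the weakest than in the middle cells, which the rule itself imposes. Levels are given as UMIs per 1000000 summed over a group (CPM). Asns, the asparagine synthetase, was at 81.1 CPM in the weakest, 338 in the middle and 35.4 in the vehicle cells. Slc7a3, a cationic amino acid transporter, was at 31.2, 177 and 3.99 CPM, and Trib3, a pseudokinase that feeds back on ATF4, at 5.0, 53.3 and 0.707 CPM. Ddit3, which encodes CHOP, was at 15.3, 38.9 and 16.3 CPM. Sesn2, a sestrin of amino acid sensing, was at 32.3, 116 and 19.2 CPM. Of the 9 genes, 8 stayed above vehicle, although Asns and Pck2 fell slightly below it when cells were ranked after thinning to 5000 UMIs. Ddit3 was at 0.941 of vehicle (0.739 to 1.19).

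Because a cell with few captured UMIs can rank low by sampling alone, the choice was repeated in ways that left the measured UMIs out. Each cell's UMIs were split at random into 2 equal sets, cells were ranked on 1 set, and levels were read in the other. The summed level of the 9 genes was then 319 CPM in the lowest 10% and 1064 CPM in the middle, 3.34-fold lower (3.13 to 3.56) and 3.50-fold above vehicle. Of the 283 weakest cells, 220 (77.7%) were also in the choice on 1 set. The UMIs of that set are part of the full counts, which raises this overlap by construction, so it is a description only. Across the 2838 treated cells the shares from both sets, which come from the same cells and depths, had a Pearson r of 0.725 and a Spearman rho of 0.745. When cells were ranked by the other 8 genes, Trib3 was 8.51-fold lower in the weakest than in the middle cells (6.35 to 11.7), Cth, the cystathionine gamma-lyase of cysteine synthesis, 5.59-fold (4.66 to 6.75), Slc7a3 3.50-fold (3.13 to 3.91), Asns 2.69-fold (2.50 to 2.90) and Ddit3 2.36-fold (1.94 to 2.89). Low levels of these genes went together in the same cells, at smaller folds than under the rule.

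Outside the 9 genes, 4695 genes were measured against the middle cells, which means at least 20 CPM in the higher group. Of these, 56 were at least 1.5-fold higher in the weakest cells (1.19%) and 88 at least 1.5-fold lower (1.87%). With the milder size used for gene lists, a log2 ratio of at least 0.32, 292 were higher (6.22%) and 308 lower (6.56%), and the median log2 ratio of all measured genes was -0.01. Against vehicle cells 4783 genes were measured, of which 326 were at least 1.5-fold higher in the weakest cells (6.82%) and 150 lower (3.14%). At the list size 1049 were higher (21.9%) and 521 lower (10.9%), and the median log2 ratio was 0.07. These list-size shares over all measured genes stand beside the counts of list members below. The comparisons share the weakest cells, and the middle cells and vehicle cells set against each other gave 466 higher (9.7%) and 300 lower (6.24%) of 4806 genes at 1.5-fold.

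Mitochondrially encoded RNA moved with the ranking and stands beside every comparison with the middle cells. The median share of such UMIs was 5.98% in the weakest, 4.72% in the middle and 5.87% in the vehicle cells. Of the 283 weakest cells, 167 (59.0%) fell in the highest of 5 equal groups of treated cells by that share and 4 in the lowest. When the lowest 10% and the middle were taken within each of these 5 groups, 24 genes were higher and 39 lower at 1.5-fold. Folds from that choice are given below as matched for mitochondrial share. The part of the mitochondrial share in the other differences was not tested.

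ATF4 pathway genes outside the rule were low together in the weakest cells. Of 75 such genes on 4 lists, 54 were measured against the middle cells, 41 were lower at the list size and none was higher, with a median log2 ratio of -0.76. Against vehicle the median over 49 measured genes was 0.47, and 37 of them were higher and 1 lower at the list size. The middle cells against vehicle had 47 of 54 higher and a median of 1.28, where 26.7% of all genes were higher. Their summed level was 6511 CPM in the weakest, 11228 in the middle and 4168 in the vehicle cells. With the treated cells chosen within groups of mitochondrial share, the median was -0.50 against the middle cells. It was 0.79 against all vehicle cells, which were not matched for that share.

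Among regulators and feedback genes, 10 of 11 measured were lower in the weakest than in the middle cells. Atf4 itself was at 163 CPM in the weakest, 327 in the middle and 139 in the vehicle cells. Cebpb, a bZIP partner of ATF4, was at 27.0, 89.8 and 19.4 CPM, 3.33-fold lower than in the middle cells (2.85 to 3.92) and 2.51-fold with mitochondrial share matched. Eif4ebp1, which encodes the translation repressor 4E-BP1, was at 338, 836 and 242 CPM, 2.48-fold lower (2.37 to 2.59). Creb3l1, a transcription factor anchored in the endoplasmic reticulum, was at 5.91, 20.6 and 1.54 CPM, 3.48-fold lower (2.49 to 4.99). Cebpb and Eif4ebp1 were each 1.39-fold above vehicle, and Creb3l1 was 3.83-fold above it (2.25 to 6.66). The 1 gene of this list that was not lower was Cdkn1a, which is also a p53 target and is described below.

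Of 8 measured amino acid transporters, 7 were lower in the weakest than in the middle cells. Slc3a2, the heavy chain shared by several exchangers, was at 377 CPM in the weakest, 903 in the middle and 186 in the vehicle cells, 2.39-fold lower than in the middle (2.29 to 2.50). Its light chain for large neutral amino acids, Slc7a5, was at 160, 410 and 108 CPM, 2.56-fold lower (2.40 to 2.74). Slc7a1, a cationic amino acid transporter, was at 26.4, 49.2 and 29.7 CPM and so at 0.887 of vehicle (0.741 to 1.06). Slc38a2, which imports small neutral amino acids, was the 1 pathway gene below vehicle at the list size, at 39.9 CPM in the weakest against 51.9 in the middle and 64.6 in the vehicle cells. Slc1a3, a glutamate transporter of radial glia, did not differ at the list size from the middle cells, at 301 against 297 CPM.

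The serine, one-carbon and proline enzymes had 8 of 14 measured members lower and none higher against the middle cells. Psph, the last enzyme of serine synthesis, was at 78.8 CPM in the weakest, 221 in the middle and 57.2 in the vehicle cells, 2.81-fold lower (2.56 to 3.09) and 1.99-fold with mitochondrial share matched. Psat1, the step before it, was at 280, 560 and 161 CPM. Shmt2, the mitochondrial serine hydroxymethyltransferase, was at 200, 431 and 116 CPM, 2.15-fold lower (2.03 to 2.29). Bcat1, a branched-chain aminotransferase, was at 87.4, 185 and 55.7 CPM. Tyms, the thymidylate synthase, stayed near the middle level, at 30.8 against 31.7 CPM.

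Of 21 measured transfer RNA synthetases and related genes, 16 were lower than in the middle cells and none was higher. Eprs was at 168 CPM in the weakest, 381 in the middle and 77.5 in the vehicle cells, 2.26-fold lower (2.12 to 2.42). Nars was at 235, 502 and 131 CPM, and Iars, at 25.3, 52.1 and 26.6 CPM, reached the vehicle level. Dars and Qars, at 93.2 and 93.3 CPM in the weakest cells against 88.1 and 82.0 in the middle cells, were not lower. The plot of levels in the 3 groups shows members of each list. Apart from Cdkn1a, Sparc and Gas6, the plotted genes were lower in the weakest than in the middle cells. Slc7a1 and Iars were at or slightly below vehicle.

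**Figure D2:**
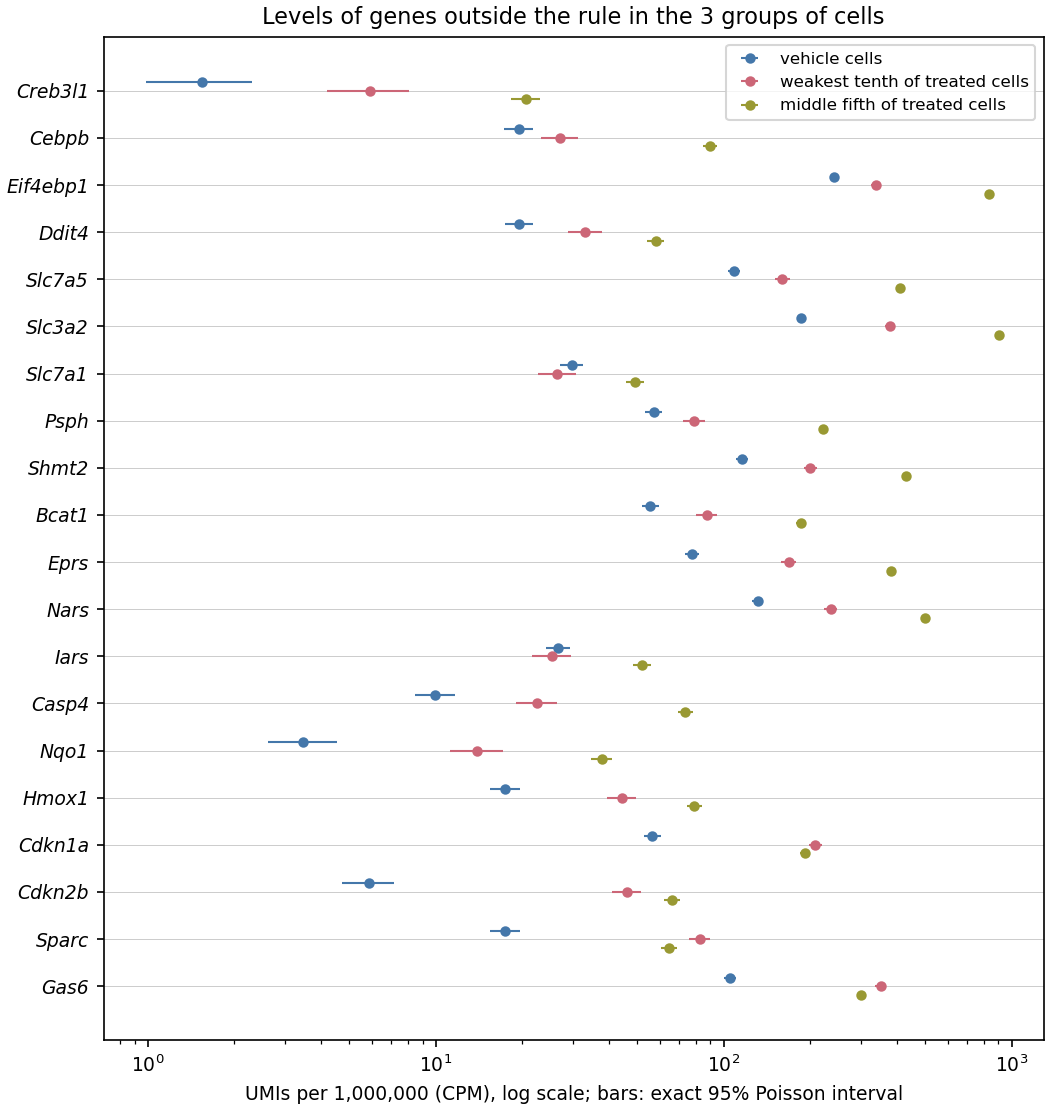
Level of 20 genes outside the rule (x axis, CPM on a log scale, with exact 95% Poisson intervals) in vehicle, weakest and middle cells. From Creb3l1 to Nqo1 the weakest cells lie nearer to vehicle than the middle cells do; Cdkn1a, Sparc and Gas6 in the weakest cells lie far above vehicle, at 208, 82.7 and 350 CPM, and near the middle level.

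The weakest cells were the low end of a gradient. Over 10 equal groups of treated cells in order of the ranking, the summed level of ATF4 pathway genes outside the rule went from 6511 CPM in the lowest group through 7925, 9184 and 9851 to 14280 CPM in the highest, each group above the one before it. Cebpb went from 27.0 to 218 CPM over the same groups, Atf4 from 163 to 415 CPM and Nqo1 from 13.9 to 74.7 CPM. Even the lowest group stayed above the 4168 CPM of vehicle cells. The median mitochondrial share went from 5.98% in the lowest to 4.07% in the highest group.

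**Figure D3:**
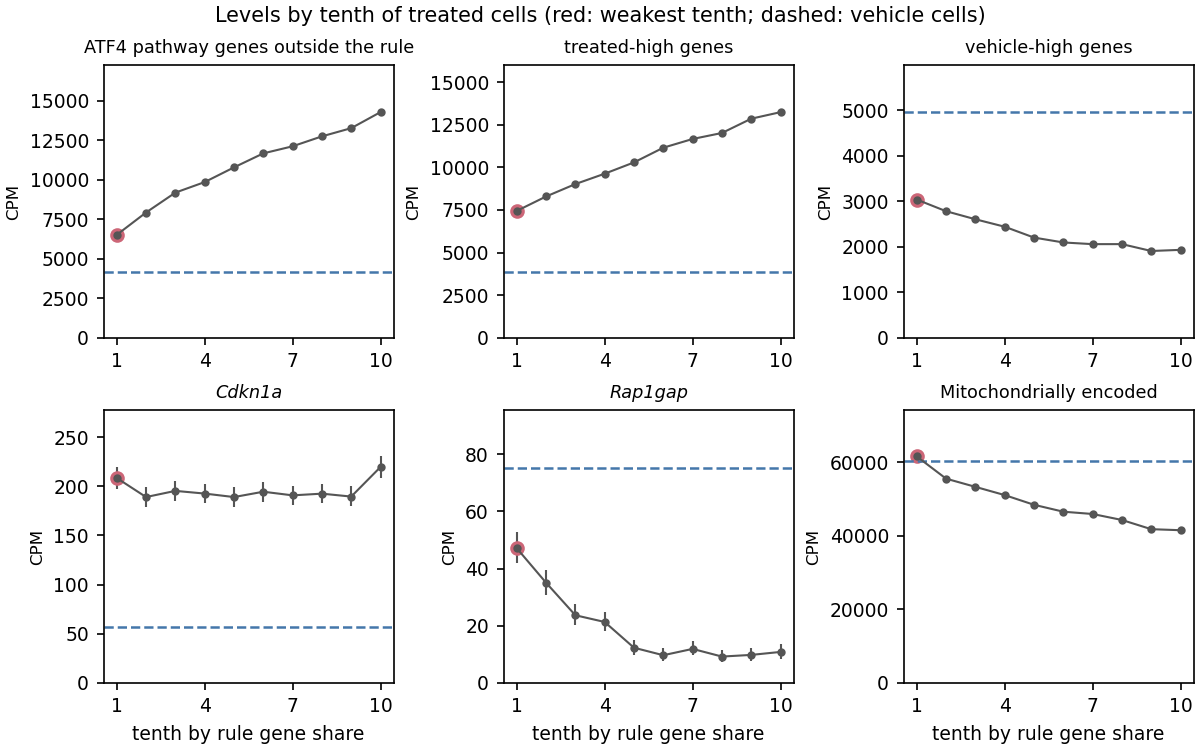
Level (y axis, CPM) in 10 equal groups of treated cells in order of the share of the 9 genes (x axis), with the weakest cells in red, exact 95% Poisson bars and the vehicle level dashed. ATF4 pathway and treated-high genes climb over all 10 groups, Cdkn1a stays between 189 and 220 CPM, and Rap1gap and mitochondrially encoded genes are highest in the weakest cells.

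The difference was also present at equal depth. With every cell thinned to 5000 UMIs, the median cell held 31 UMIs of ATF4 pathway genes outside the rule among the weakest, 56 among the middle and 20 among the vehicle cells. Asns is a gene of the rule, so its shares of cells are a description only. An Asns UMI was found in 33.9% of weakest (28.4 to 39.8), 80.8% of middle and 14.51% of vehicle cells. Without thinning, at median depths of 21567, 24154 and 17405.5 UMIs, these shares were 79.9%, 99.6% and 42.8%. A Cebpb UMI was found in 12.7% of thinned weakest, 33.3% of middle and 10.4% of vehicle cells. Neither library held an identified cell type without these genes, and how much free RNA added to such shares was not tested.

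Several other genes were low in the weakest cells. The smallest ratio against the middle cells outside the rule was that of Ifi27l2b, an interferon-inducible gene with near-identical relatives whose counts are uncertain for that reason, at 15.8 CPM in the weakest, 65.1 in the middle and 0.707 in the vehicle cells. Casp4, an inflammatory caspase, was at 22.4, 73.5 and 9.97 CPM, 3.28-fold lower (2.76 to 3.92). Phf10, a subunit of a BAF chromatin remodelling complex, was at 48.5, 154 and 35.7 CPM, 3.18-fold lower (2.83 to 3.59). Pla2g4a, the cytosolic phospholipase A2, was at 6.21, 20.1 and 2.19 CPM. Hspa4l, a chaperone of the HSP110 family, was at 13.6, 39.2 and 9.39 CPM. The ratios to the middle cells of these 5 genes, matched for mitochondrial share, lay between 0.325 for Ifi27l2b and 0.508 for Hspa4l, with 0.420 for Casp4, 0.461 for Phf10 and 0.486 for Pla2g4a.

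NRF2 regulates antioxidant genes. Of 22 measured NRF2 and glutathione genes, 7 were lower and 1 was higher than in the middle cells, while 14 passed the list size in neither direction, and 15 of 21 were higher than in vehicle cells. Nqo1, a quinone reductase, was at 13.9 CPM in the weakest, 37.7 in the middle and 3.47 in the vehicle cells, 2.70-fold lower than in the middle (2.16 to 3.41) and 4.01-fold above vehicle (2.84 to 5.73). Hmox1, the haem oxygenase, was at 44.4, 79.1 and 17.4 CPM, and Gclc, the catalytic subunit of glutathione synthesis, at 33.0, 55.7 and 19.0 CPM. These 3 genes were below the middle and above vehicle, while Gclm, the other subunit of the same enzyme, was at 59.1 against 58.0 CPM in the middle cells. Of 22 translation factors 5 were lower than in the middle cells, led by Eif2s2 at 608 against 1011 CPM, and of 19 ribosome biogenesis genes 3 were lower. Ribosomal protein genes had none of 42 past the list size. Of all measured genes 6.56% were lower than in the middle cells and 21.9% higher than in vehicle cells.

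Some other genes that were high in the treated library stayed high in the weakest cells. Cdkn1a, the p53 target that encodes the cell cycle inhibitor p21, was at 208 CPM in the weakest, 192 in the middle and 56.5 in the vehicle cells, 3.69-fold above vehicle (3.38 to 4.02). With thinned cells, a Cdkn1a UMI was in 45.2% of weakest, 51.3% of middle and 17.2% of vehicle cells, and 10 cells held 23.6% of the Cdkn1a UMIs of the weakest. Over the 10 groups of the ranking Cdkn1a stayed between 189 and 220 CPM. Cdkn2b, a second cell cycle inhibitor, was at 46.1, 66.0 and 5.85 CPM, which was the largest ratio to vehicle among named genes outside the rule with at least 20 CPM in the weakest cells, 7.87-fold (6.21 to 10.1). Among 13 measured p53 targets 2 were higher and 3 lower than in the middle cells, against 6.22% and 6.56% of all genes. Against vehicle cells 8 of 12 were higher, against 21.9% of all genes. Ccng1, a cyclin of the p53 feedback, was at 300, 206 and 187 CPM. It was thus highest in the weakest cells, while the middle cells were near vehicle. Pmaip1, which encodes the pro-apoptotic NOXA, was at 67.1, 94.0 and 29.9 CPM.

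Most proteasome and lysosome genes differed from the middle cells by less than the list size. None of 30 proteasome genes passed the list size against the middle cells and 18 of 30 were higher than in vehicle cells, with summed levels of 9507 CPM in the weakest, 9959 in the middle and 7475 in the vehicle cells. Of 21 lysosome and autophagy genes 2 were lower than in the middle cells and none higher, and 14 of 20 were higher than in vehicle cells, with 3692, 3632 and 2808 CPM. Sparc, a matricellular glycoprotein, was at 82.7, 64.7 and 17.4 CPM, 4.75-fold above vehicle (4.10 to 5.51). Gas6, a ligand of TAM receptors, was at 350, 300 and 105 CPM, 3.34-fold above vehicle (3.13 to 3.56). ER chaperones had 1 of 18 lower than in the middle cells and 6 of 18 lower than in vehicle cells. Of all measured genes 6.56% were lower than in the middle cells, and against vehicle 21.9% were higher and 10.9% lower.

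Some genes that were low in the middle cells lay nearer to vehicle in the weakest. Rap1gap, which switches off the small GTPase Rap1, had the largest ratio against the middle cells, at 47.1 CPM in the weakest, 11.0 in the middle and 75.1 in the vehicle cells, 4.30-fold (3.54 to 5.23) and 2.25-fold with mitochondrial share matched. A Rap1gap UMI was in 19.8% of thinned weakest cells (15.3 to 24.9), 5.82% of middle cells and 28.7% of vehicle cells. Olig1, a transcription factor of the oligodendrocyte lineage, was at 1215, 849 and 1687 CPM, and Cnp, a myelin-associated phosphodiesterase, at 121, 58.7 and 142 CPM, 2.06-fold above the middle (1.87 to 2.28) and 1.45-fold with mitochondrial share matched. Of 5 measured genes of the oligodendrocyte lineage 3 were higher than in the middle cells, against 6.22% of all genes. Below vehicle were 4 of 6, against 10.9% of all genes. The steepest of those 4 was Gal3st1, which makes the myelin lipid sulfatide, at 11.7, 4.04 and 33.8 CPM. Cfap52, a gene of motile cilia, had the smallest ratio to vehicle, at 7.42, 3.91 and 33.1 CPM.

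Of 5 measured Notch pathway genes 3 were higher than in the middle cells, against 6.22% of all genes. Below vehicle were 4 of 6, against 10.9% of all genes. The receptors Notch1 and Notch2 were at 28.5 and 30.9 CPM in the weakest, 19.2 and 18.4 in the middle and 47.3 and 39.4 in the vehicle cells. Hes6, a HES family factor of differentiating progenitors, was at 113, 64.4 and 111 CPM and so at the vehicle level. With mitochondrial share matched the ratios to the middle cells were 1.10 for Notch2, which is under the list size, 1.22 for Notch1, also under it, and 1.43 for Hes6. The stem cell factors Sox2 and Nes did not differ at the list size, with Sox2 at 231, 245 and 230 CPM and Nes at 130, 131 and 121 CPM. Of 12 measured SOX and neural stem cell genes, 4 were higher and 1 was lower than in the middle cells, against 6.22% and 6.56% of all genes. Against vehicle cells 5 of 13 were higher and 2 lower, against 21.9% and 10.9% of all genes.

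A further set was higher in the weakest cells than in both other groups. Myl9, a myosin light chain of contractile cells, was at 42.9 CPM in the weakest, 16.8 in the middle and 5.72 in the vehicle cells, and 10 cells held 41.7% of its UMIs in the weakest. Mgmt, a DNA repair methyltransferase, was at 50.2, 20.8 and 13.2 CPM, 2.42-fold above the middle (2.06 to 2.83). In the weakest, 10 cells held 38.1% of the Mgmt UMIs. Igfbp5, a binding protein for insulin-like growth factors, was at 39.4, 13.5 and 19.2 CPM, and its relative Igfbp7 at 23.5, 11.1 and 10.0 CPM. Of the Igfbp5 UMIs in the weakest, 30.4% were in 10 cells. Aldoc, an aldolase of astrocytes, was at 65.0, 31.7 and 36.3 CPM. Apoe, the lipid carrier of astrocytes, was at 28.8, 17.3 and 4.69 CPM, with 62.1% of its UMIs in 10 of the weakest cells. It was lower than in the middle cells when cells were chosen after thinning. Of 14 astrocyte markers only 4 were measured, of which 3 were higher than in the middle cells, against 6.22% of all genes. Against vehicle cells 2 of 4 measured were higher, against 21.9% of all genes. Aldh1l1, Aqp4, Fgfr3 and Ntsr2 were at 0 in the weakest cells. Matched for mitochondrial share, the ratios to the middle cells were 1.78 for Myl9, 2.13 for Mgmt, 2.22 for Igfbp5 and 1.60 for Aldoc. Mesenchymal markers, summed over 14 genes, were also highest in the weakest cells, at 21.1, 15.2 and 8.23 CPM, and their part in this set was not tested.

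**Figure D4:**
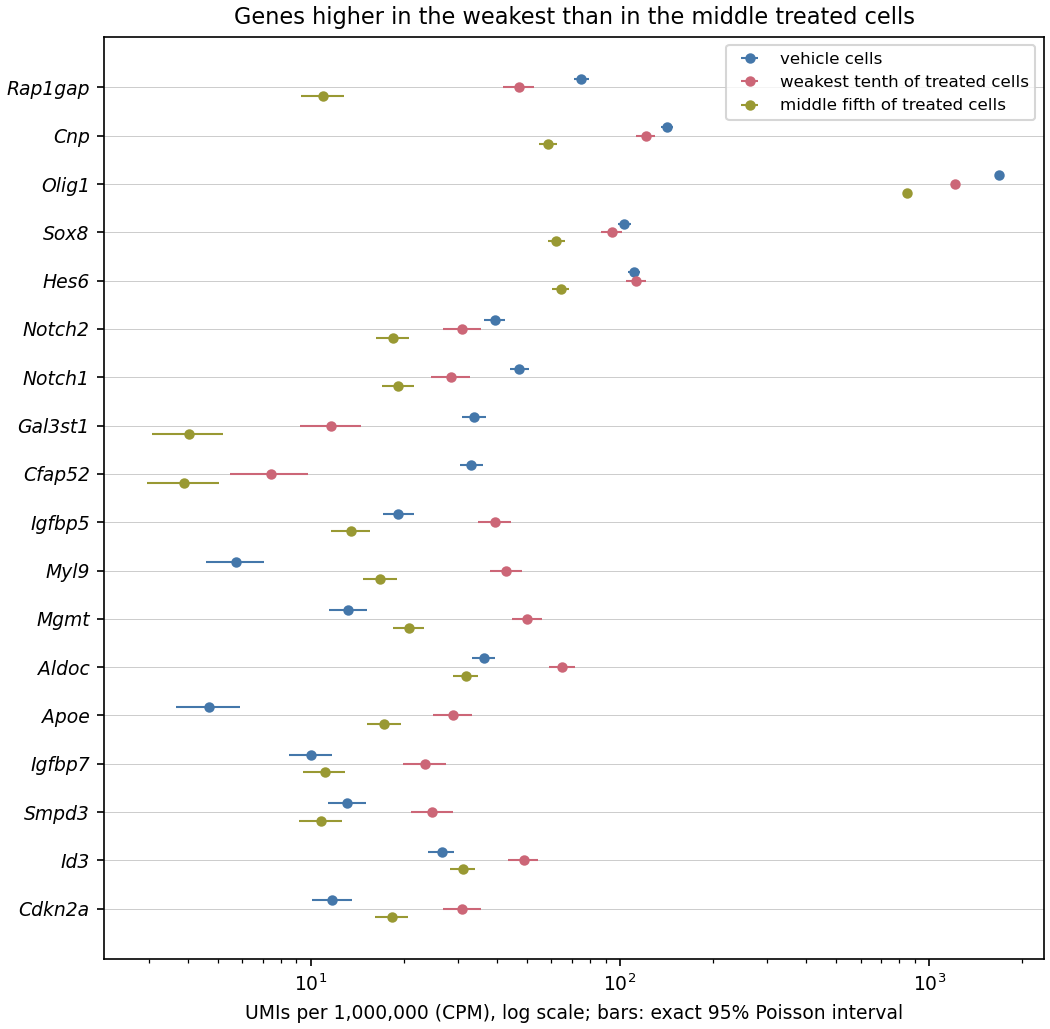
Level of 18 genes (x axis, CPM on a log scale, with exact 95% Poisson intervals) in vehicle, weakest and middle cells. From Rap1gap to Cfap52 the weakest cells lie between the others or at vehicle, and from Igfbp5 to Cdkn2a above both.

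Where the weakest cells lay between the libraries was also read from genes outside the ATF4 lists that were chosen without them. Between middle and vehicle cells, 101 genes were at least 2-fold higher in the middle (treated-high) and 77 at least 2-fold lower (vehicle-high). That choice fixes how the middle and vehicle cells differ in these genes, but not where the weakest cells fall. Treated-high genes made up 0.744% of UMIs in the weakest cells (0.738 to 0.751), 1.07% in the middle and 0.383% in the vehicle cells. Vehicle-high genes made up 0.304% (0.300 to 0.308), 0.215% and 0.496%. Of the 101 treated-high genes, 81 were at least 1.5-fold above vehicle in the weakest cells and 37 at least 1.5-fold below the middle. Of the 77 vehicle-high genes, 60 were at least 1.5-fold below vehicle and 30 at least 1.5-fold above the middle. The median log2 ratio to vehicle was 0.98 for treated-high genes in the weakest against 1.36 in the middle cells, and -0.78 against -1.26 for vehicle-high genes.

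By single cells, none of the 283 weakest was at or below the vehicle median of the treated-high share. Of them 147 (51.9%) were nearer to the vehicle median than to the middle median, as were 25 of the 567 middle cells (4.41%) and 707 of the 710 vehicle cells (99.6%). By the vehicle-high share, 89 of the weakest (31.4%) were nearer to vehicle and 28 were at or above the vehicle median. The weakest cells spread from the vehicle range into the middle range.

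**Figure D5:**
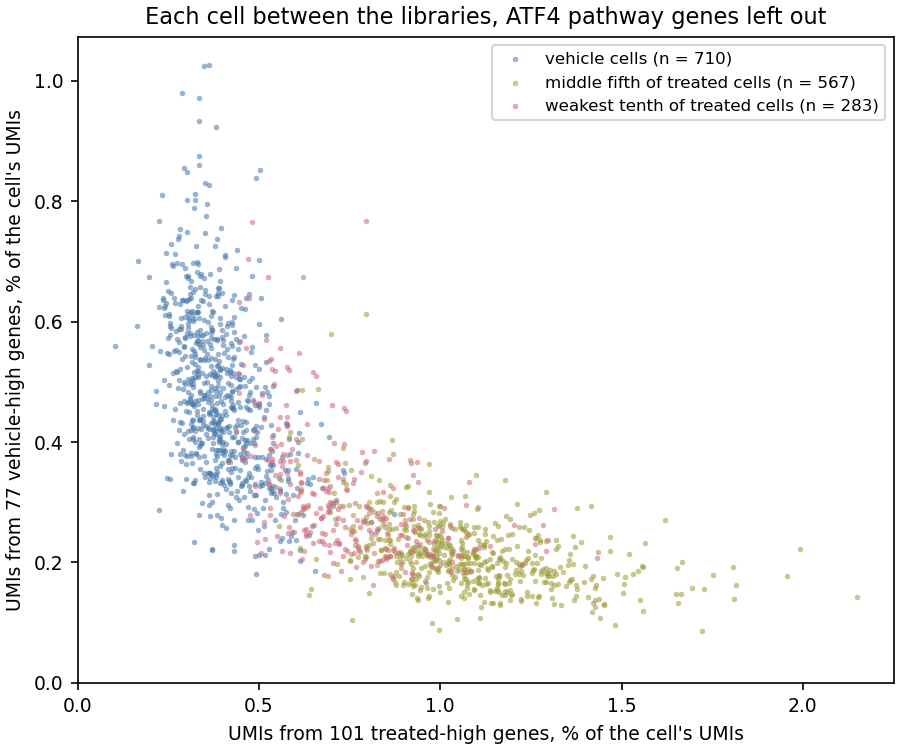
Each point is a cell, with the share of its UMIs from 101 treated-high genes (x axis, %) and from 77 vehicle-high genes (y axis, %), ATF4 pathway genes left out. The weakest cells, with group values of 0.744% and 0.304%, form a bridge that overlaps vehicle cells at one end and middle cells at the other.

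Among cell cycle genes, those of S phase were slightly higher in the weakest than in the middle cells. Of 32 measured S phase genes 8 were higher at the list size, which 6.22% of all measured genes passed, and none was lower, with a median log2 ratio of 0.25. The 42 measured genes of G2 and mitosis had 1 higher and a median of 0.01. Mcm2, a subunit of the replicative helicase, was at 81.4 CPM in the weakest, 59.0 in the middle and 61.0 in the vehicle cells. Thinned cells held a Mki67 UMI, a marker of cycling cells, in 26.5% of the weakest (21.5 to 32.0), 18.9% of the middle (15.7 to 22.3) and 31.0% of the vehicle cells (27.6 to 34.5), and unthinned in 59.4%, 55.6% and 64.4%. Over 5 equal groups of treated cells by cell cycle UMIs, the weakest cells numbered 40, 52, 68, 62 and 61 from lowest to highest. Over 5 groups by total UMIs they numbered 82, 70, 47, 51 and 33, with 82 in the group that had the fewest UMIs.

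Markers of microglia, endothelial and erythroid cells were at or near 0, and mesenchymal markers were low but not at 0. Microglia and macrophage markers summed to 0.606 CPM in the weakest, 0.0685 in the middle and 0.450 in the vehicle cells, with 9 of 11 markers at 0 in the weakest, and all 4 erythroid markers were at 0. Endothelial markers summed to 1.82, 3.43 and 1.54 CPM. The 14 mesenchymal markers summed to 21.1, 15.2 and 8.23 CPM, 2.56-fold above vehicle in the weakest cells (2.00 to 3.28), with 6 at 0. A single middle cell, led by Col3a1, held 98 of the 222 such UMIs of the middle cells. A UMI of Tagln, the leading one, was in 5.65% of thinned weakest, 2.29% of middle and 0.282% of vehicle cells, and unthinned in 12.01%, 7.76% and 0.986%. Neuron markers summed to 276, 223 and 212 CPM, and the weakest cell with most of them held 108 such UMIs, led by Stmn2. Among the HCN channels that ZD7288 blocks, Hcn3 had 7 UMIs in the weakest cells, and Hcn2 and Hcn4 had 0, which allows up to 0.455 CPM. Of the 3 barcode sequences found in both libraries, none was among the weakest and 1 was among the middle cells. A doublet score marked 64 treated cells, 1 of them among the weakest and 15 among the middle, and these cells were kept.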

How the data were processed

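The authors deposited 1 matrix of raw UMI counts (25399 genes, 4691 barcodes) of droplet libraries made with the 10x 3′ kit, version 2, per the labels. Per the submitters' processing notes it came from Cell Ranger, and its header gives version 3.0.2. Genome build, annotation and barcode filter were not given in the sources used here. The number after each barcode's hyphen was matched to the number that opens a sample title, and every direction rests on this match alone. The members and gene lists were chosen with earlier results of these data known.

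Counts were summed over the cells of a group and scaled to 1000000 (CPM). The 3 groups held 6599460 UMIs (weakest, median 21567 a cell), 14591345 (middle, 24154) and 15549058 (vehicle, 17405.5). Genes counted as measured where the higher group reached 20 CPM. Ratios have exact Clopper-Pearson 95% intervals on the share of both counts, CPM exact Poisson and shares exact binomial intervals. A count of 0 allowed up to 3 counts. Of 880 symbols on 40 lists, 826 were matched. Named were the 12 largest and 12 smallest ratios of each comparison among genes with a symbol, the genes of the rule, the HCN genes, and up to 3 members of each list with the largest difference from the middle past the list size, or else its most abundant member; other named genes were chosen after their values were seen. A few genes that the rule names are not reported here. Promoter windows and their coordinates are RefSeq's for GRCr8 and independent of the authors' build. Doublets were scored against simulated ones. The scripts (Python 3.11.15, numpy 2.4.6, scipy 1.17.1) were tested on simulated counts.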

Additional observations from a re-analysis of the deposited data

How the results depend on the processing

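No paired analysis was possible because each treatment was 1 library. Main counts were 56 higher and 88 lower genes against the middle cells, and 326 and 150 against vehicle. Counts moved by over 1.5 times with a floor of 50 CPM (12, 58, 165 and 40, fewer genes being measured), with 10 UMIs in place of a floor (936, 673, 1279 and 1149), and at 2-fold (12, 28, 73 and 19). They also moved with the lowest 5% or 20% of cells (94 and 29 higher against the middle), within 5 groups of mitochondrial share (24 and 39 against the middle) and with thinned cells (118 and 142 against the middle, 230 lower against vehicle); the cause was not tested. The median log2 ratio of ATF4 pathway genes outside the rule was -0.50, -0.53 and -0.52 against the middle within mitochondrial groups, with thinned cells and at a limit of 5% mitochondrial UMIs, and 0.79 and 0.76 against vehicle in the first and second of these.

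The treated-high and vehicle-high shares, whose intervals are narrow, were 0.789% and 0.290% with the lowest 20% of cells, 0.765% and 0.295% within 5 groups of total UMIs, 0.834% and 0.276% within mitochondrial groups, 0.761% and 0.295% chosen on 1 of 2 sets of UMIs, 0.798% and 0.294% with thinned cells, 0.841% and 0.274% at the 5% limit and 0.734% and 0.312% with equal weight per cell. The treated-high share was 0.758% within 5 groups of cell cycle UMIs, and the vehicle-high share 0.311% with the lowest 5% of cells. Of 118 values of the main results under alternatives, 78 kept their size.

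Counting every value, however close to 0, 15 of 34 list medians and 14 of 115 named genes changed sign against the middle under at least 1 alternative, as did 8 of 34 and 21 of 115 against vehicle. Among lists past the log2 size of 0.32 and genes past 1.5-fold, directions turned for 3 list medians and 5 genes. Against the middle cells, ID and BMP genes were at -0.027 when chosen on 1 set of UMIs and -0.24 at the 5% limit. With thinned cells Apoe was at -0.52 and Sdf2l1 at -0.045, and Hcn3 was at -1.62 at the 5% limit. Against vehicle, CDK inhibitors were at -0.22 with thinned cells, -0.10 at the 5% limit, -0.23 at 50 CPM and -0.22 with 10 UMIs. Thinned cells gave -0.10 for neuron markers, -0.11 for Asns and -0.036 for Pck2. Depth limits the ranking, since the median weakest cell held 5 UMIs of the 9 genes.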
